A study of Gallus gallus with 12 samples.

Results

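NOTCH signalling was described here in the embryonic chick gut wall through 5 genes: the receptors NOTCH1 and NOTCH2, the ligands DLL1 and JAG1, and the target HES1. They were chosen by gene symbol among the 17138 rows of the deposited count table, and each of the 5 symbols had exactly 1 row. NOTCH receptors and their ligands sit in the membranes of neighbouring cells. A bound receptor is cut first by an ADAM protease and then by gamma-secretase, and the freed intracellular part joins the DNA-binding protein RBPJ to switch on targets such as HES and HEY repressors. In the gut the pathway is known for balancing absorptive and secretory cells in the epithelium, and in the mesoderm for its part in blood vessels and in smooth muscle.

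Light-seq, which barcodes regions outlined by hand on a tissue section by light before sequencing, had been applied to the gut mesoderm of embryonic day 14 chick (Gallus gallus). The 12 samples formed 3 groups of 4, and every group had received an RCAS retrovirus by in ovo electroporation at Hamburger-Hamilton stage 17 into the splanchnic mesoderm at midgut level. Midgut and hindgut samples carried RCAS-mGFP, a fluorescent control, and are called midgut and hindgut here. The Hoxd13 midgut samples carried RCAS-Hoxd13. Each sample gave counts for 3 layers: a mesenchyme just under the epithelium (subepithelial mesenchyme), a longitudinal muscle (inner) and the inner superficial side of the circumferential muscle. The series text names the mesenchyme as the layer for its comparisons. The labels do not state whether samples of a group were separate embryos, so p-values measure only the spread between these samples.

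Total counts per sample were 210803 to 903222 in the mesenchyme, 11233 to 49535 in the longitudinal muscle and 19920 to 112252 in the circumferential muscle. HOXD13 had 155 to 238 counts in each Hoxd13 midgut mesenchyme sample, 0 in every midgut sample and 1 to 8 in hindgut, so it went with the labels. All 16 listed mesenchymal marker genes, such as PDGFRA and COL1A1, were detected in each group of mesenchyme samples. So were all 14 listed smooth muscle genes, and detection alone does not tell the layers apart. Hindgut replicate 1 stood apart from the other hindgut samples: its epithelial marker genes summed to 3372 CPM (counts scaled to 1e6 per sample) against 872 to 1086 CPM in the others, and its W-linked genes to 42.1 CPM against 152 to 181 CPM. It also held the most counts of the mesenchyme samples, 903222 against 210803 to 454072 in the other hindgut samples. Results that rest on it are given with and without it. W-linked genes, which only female chicks carry, summed to 0 to 7.02 CPM in midgut and 146 to 194 CPM in the Hoxd13 midgut, so both comparisons with midgut also differed in these genes, whose part in the results was not tested. None of the 5 members lies on the W or Z chromosome in the GRCg7b assembly.

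In the mesenchyme, HES1, DLL1 and NOTCH1 were higher in hindgut than in Hoxd13 midgut, while NOTCH2 and JAG1 did not pass the test. These calls were not equally stable. Of 12 fits that each left out 1 sample, 12 kept the call of HES1, 8 that of NOTCH1 and 4 that of DLL1. Control midgut lay between the other two groups in mean level for HES1, DLL1 and NOTCH1, and none of the 5 genes passed in either comparison with it. HES1 averaged 26.4 ± 10.0 CPM in Hoxd13 midgut, 44.8 ± 11.5 in midgut and 107 ± 39.1 in hindgut (SD, n = 4). In bulk tissue, fewer cells of a type and less RNA per cell cannot be told apart.

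**Figure D1:**
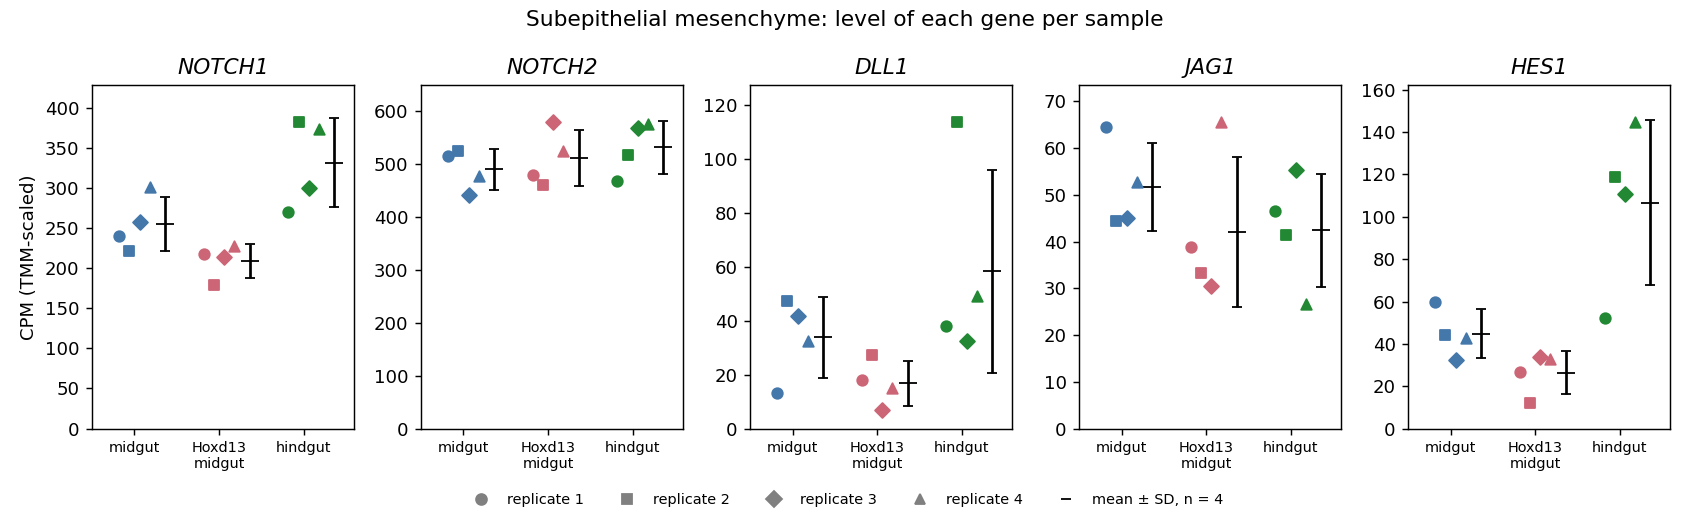
Level of each gene in the subepithelial mesenchyme, in CPM scaled by TMM on a linear axis from 0, with 1 marker per sample (shape for the replicate number) and the mean ± SD of 4 samples in black. For NOTCH1, DLL1 and HES1 every hindgut sample sits above every Hoxd13 midgut sample, whereas NOTCH2 and JAG1 overlap between all groups.

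The receptor NOTCH1 had 108, 70, 80 and 120 counts in midgut replicates 1 to 4, which were 240, 222, 257 and 301 CPM. In Hoxd13 midgut it had 73, 59, 63 and 90 counts, or 218, 179, 214 and 227 CPM. In hindgut it had 325, 74, 65 and 183 counts, or 270, 383, 300 and 374 CPM. The hindgut samples all lay above the Hoxd13 midgut samples, and midgut overlapped with both. NOTCH1 was higher in hindgut than in Hoxd13 midgut by 0.66 ± 0.15 (log2, SE; 95% interval 0.34 to 0.97; 1.58-fold), with an edgeR adjusted p = 0.020. The test was edgeR's quasi-likelihood test, adjusted by the Benjamini-Hochberg method over 4176 genes, and an adjusted p under 0.05 counts as called. This call was lost in 4 of the 12 fits that left out 1 sample, those without hindgut replicate 2 or 4 or Hoxd13 midgut replicate 2 or 3 (log2 0.58 to 0.77 over the 12 fits, adjusted p up to 0.076). Against midgut the log2 difference was 0.36 ± 0.15 for hindgut (adjusted p = 0.25) and -0.30 ± 0.15 for Hoxd13 midgut (adjusted p = 0.32), neither past the threshold of 0.05. Without hindgut replicate 1, which had the lowest hindgut level in TMM-scaled CPM, NOTCH1 was higher in hindgut than in midgut by 0.45 ± 0.14 (edgeR adjusted p = 0.014). TMM took the total of that sample from 903222 to 1205860 and that of hindgut replicate 3 from 261543 to 216744. On unscaled totals hindgut replicate 1 was not the lowest, so its rank depended on the scaling.

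NOTCH2, the other receptor, showed no difference past the test in any comparison. It had 232, 166, 137 and 190 counts in midgut replicates 1 to 4, or 516, 525, 441 and 477 CPM. In Hoxd13 midgut it had 161, 152, 171 and 208 counts, or 480, 461, 580 and 525 CPM. In hindgut it had 564, 100, 123 and 282 counts, or 468, 517, 568 and 576 CPM. The 3 groups overlapped. With 95% intervals of -0.15 to 0.37 for hindgut against midgut, -0.21 to 0.31 for Hoxd13 midgut against midgut and -0.19 to 0.33 for hindgut against Hoxd13 midgut on the log2 scale, NOTCH2 had the narrowest intervals of the 5 genes in each comparison. The adjusted p-values by edgeR were 0.80, 0.90 and 0.84.

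The ligand DLL1 was rare and variable. It had 6, 15, 13 and 13 counts in midgut replicates 1 to 4, or 13.3, 47.5, 41.8 and 32.6 CPM. In Hoxd13 midgut it had 6, 9, 2 and 6 counts, or 17.9, 27.3, 6.78 and 15.1 CPM. In hindgut it had 46, 22, 7 and 24 counts, or 38.1, 114, 32.3 and 49.0 CPM. All hindgut samples lay above all Hoxd13 midgut samples, although the lowest hindgut and the highest Hoxd13 midgut sample were close, and midgut overlapped with both. DLL1 was higher in hindgut than in Hoxd13 midgut by 1.60 ± 0.44 (log2, SE; 95% interval 0.70 to 2.50; 3.03-fold; edgeR adjusted p = 0.041). With only the 2 groups compared in the fit, DLL1 had too few counts to be tested. The call was also not stable when 1 sample was left out. It was lost in 8 of the 12 fits that left out 1 sample, those without any 1 of the Hoxd13 midgut samples, hindgut replicate 2 or 4, or midgut replicate 3 or 4, though midgut is in neither group compared (log2 1.28 to 1.92 over the 12 fits, adjusted p up to 0.13), and its adjusted p was 0.0011 without hindgut replicate 1. Against midgut DLL1 differed by 0.66 ± 0.38 in hindgut (adjusted p = 0.47) and by -0.94 ± 0.48 in Hoxd13 midgut (adjusted p = 0.32).

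JAG1, the ligand of the Serrate type, passed the test in no mesenchyme comparison. The share of DLL1 in the counts of both ligands, described below, passed in none either. With 4 samples a group and 9 comparisons that test could hardly pass, so nothing is concluded from it. JAG1 had 29, 14, 14 and 21 counts in midgut replicates 1 to 4, or 64.5, 44.3, 45.0 and 52.7 CPM. In Hoxd13 midgut it had 13, 11, 9 and 26 counts, or 38.7, 33.4, 30.5 and 65.6 CPM. In hindgut it had 56, 8, 12 and 13 counts, or 46.4, 41.4, 55.4 and 26.5 CPM. The groups overlapped, with the highest and the second lowest of the 12 values in the same group, the Hoxd13 midgut. The log2 difference was -0.32 (95% interval -0.88 to 0.24) for hindgut against midgut, -0.30 (-0.87 to 0.28) for Hoxd13 midgut against midgut and -0.03 (-0.61 to 0.56) for hindgut against Hoxd13 midgut. The edgeR adjusted p-values were 0.69, 0.63 and 0.99, and the groups cannot be called alike within intervals of this width.

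HES1, a repressor of the basic helix-loop-helix class and a target of NOTCH, had the largest fold change of the 5 genes in both hindgut comparisons. It had 27, 14, 10 and 17 counts in midgut replicates 1 to 4, or 60.0, 44.3, 32.2 and 42.7 CPM. In Hoxd13 midgut it had 9, 4, 10 and 13 counts, or 26.8, 12.1, 33.9 and 32.8 CPM. In hindgut it had 63, 23, 24 and 71 counts, or 52.2, 119, 111 and 145 CPM. Hindgut replicates 2 to 4 lay above every midgut and Hoxd13 midgut sample, and replicate 1 lay within the midgut range in TMM-scaled CPM. On unscaled totals replicate 1 also lay above every midgut sample, so its place depended on the scaling. Hindgut exceeded Hoxd13 midgut by 1.90 ± 0.34 (log2, SE; 95% interval 1.20 to 2.61; 3.74-fold; edgeR adjusted p = 0.0032), and this call held in all 12 fits that left out 1 sample (1.57 to 2.28).

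Against midgut, HES1 was 2.16-fold higher in hindgut without passing the threshold (log2 1.11 ± 0.30, SE, edgeR adjusted p = 0.061). In TMM-scaled CPM, 3 of 4 hindgut samples lay above all midgut samples. Without hindgut replicate 1, HES1 was higher by 1.47 ± 0.23 (edgeR adjusted p = 2.6e-06), whereas the other 11 fits that left out 1 sample did not pass. With no low-count filter HES1 passed at the same size (1.11, edgeR adjusted p = 0.00089 over 16829 genes), a setting that also called more genes over all. Of the 4 alternative settings that gave HES1 an adjusted p here, this one included, 2 passed. The highest edgeR adjusted p among the 4 was 0.18. In Hoxd13 midgut HES1 differed from midgut by -0.79 ± 0.38 (adjusted p = 0.30), with a 95% interval of -1.59 to 0.00. Both comparisons share the midgut samples, and the direct test of hindgut against Hoxd13 midgut is the test of their difference.

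**Figure D2:**
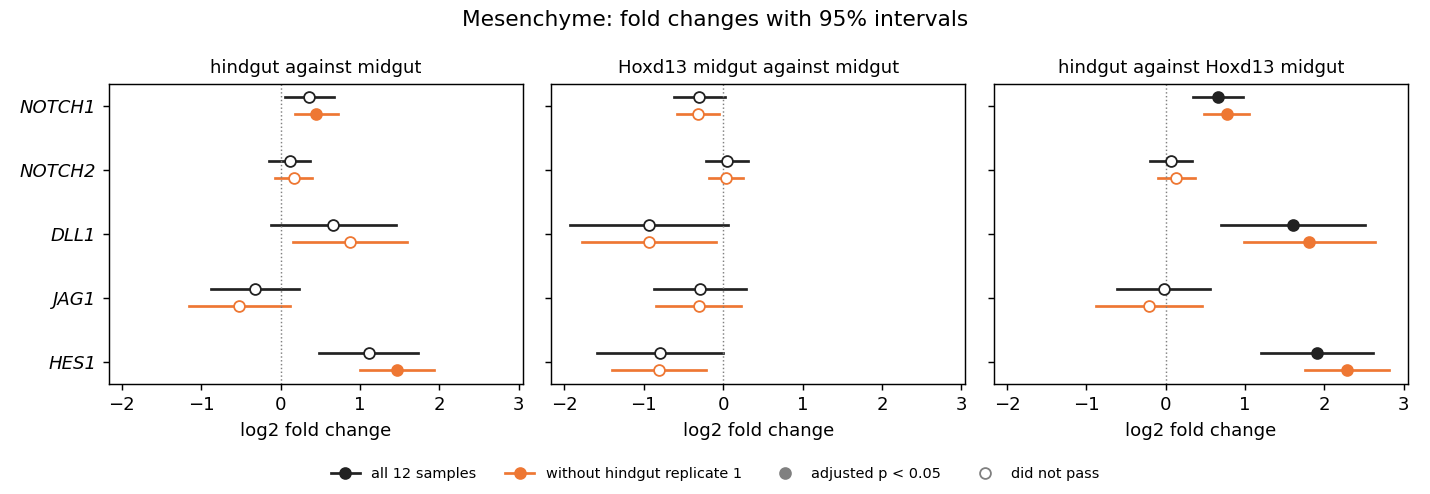
Log2 fold changes of the 5 genes in the mesenchyme with 95% intervals, in 3 comparisons, from all 12 samples (black) and without hindgut replicate 1 (orange); filled points passed an adjusted p of 0.05. Of the 5 genes, NOTCH1, DLL1 and HES1 are filled in hindgut against Hoxd13 midgut, and none is filled in Hoxd13 midgut against midgut.

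The members were chosen with earlier results of these data known, so the shares of all genes given here are a description and no test of the set. In counts, 3 of the 5 members were called higher in hindgut than in Hoxd13 midgut, where 3.78% of the 4176 genes tested were called and 2.25% were called higher. That count was 1 without hindgut replicate 2 or 4 or Hoxd13 midgut replicate 2 or 3 (HES1), and DESeq2 called only NOTCH1, having given no adjusted p for HES1 and DLL1. The same 3 had groups that did not overlap, as had 4.07% of genes in that direction. Without hindgut replicate 1 the same comparison called these 3 members again, with 7.81% of 4214 genes called higher. In hindgut against midgut edgeR called 0 of 5 members, with 2 at an unadjusted p under 0.05, and DESeq2 called 0 (it gave no adjusted p for DLL1, JAG1 and HES1). There 1.48% of all genes were called. Without hindgut replicate 1 it called 2 of 5, HES1 and NOTCH1, when 10.1% of all genes were called higher. In Hoxd13 midgut against midgut edgeR called 0 of 5, with 0 at an unadjusted p under 0.05, and DESeq2 called 0, against 2.66% of all genes.

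Shares within a sample do not depend on library scaling, and 3 of them were computed after the levels had been seen. NOTCH1 made up 36.6%, 42.5%, 34.6% and 39.4% of the counts of both receptors in hindgut replicates 1 to 4 and 31.2%, 28.0%, 26.9% and 30.2% in Hoxd13 midgut. The groups did not overlap (difference 9.18 percentage points, exact two-sided permutation test, p = 0.029, the smallest that 4 against 4 samples can give; 0.13 adjusted over 9 comparisons). In midgut the share was 34.3 ± 4.24% (SD, n = 4), and it overlapped with both. DLL1 made up 55.0 ± 16.9% of the counts of both ligands in hindgut, 38.8 ± 15.5% in midgut and 28.4 ± 12.7% in Hoxd13 midgut, with overlapping groups (hindgut against Hoxd13 midgut, exact permutation p = 0.057, adjusted 0.13). HES1 was set against HES4, a related repressor whose fitted change between hindgut and Hoxd13 midgut was -0.04 ± 0.15 (edgeR adjusted p = 0.93). HES1 made up 21.6%, 43.4%, 42.1% and 46.4% of their joint counts in hindgut replicates 1 to 4 and 12.2%, 6.56%, 17.5% and 15.5% in Hoxd13 midgut. These groups did not overlap either (exact permutation p = 0.029, adjusted 0.13). Each share reused counts of members already tested above, and HES4 was picked after its values were seen, so no share is a separate test. RefSeq lists HES1 as an older synonym of chick HES4, so the 2 rows were kept apart by the symbols of the file.

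**Figure D3:**
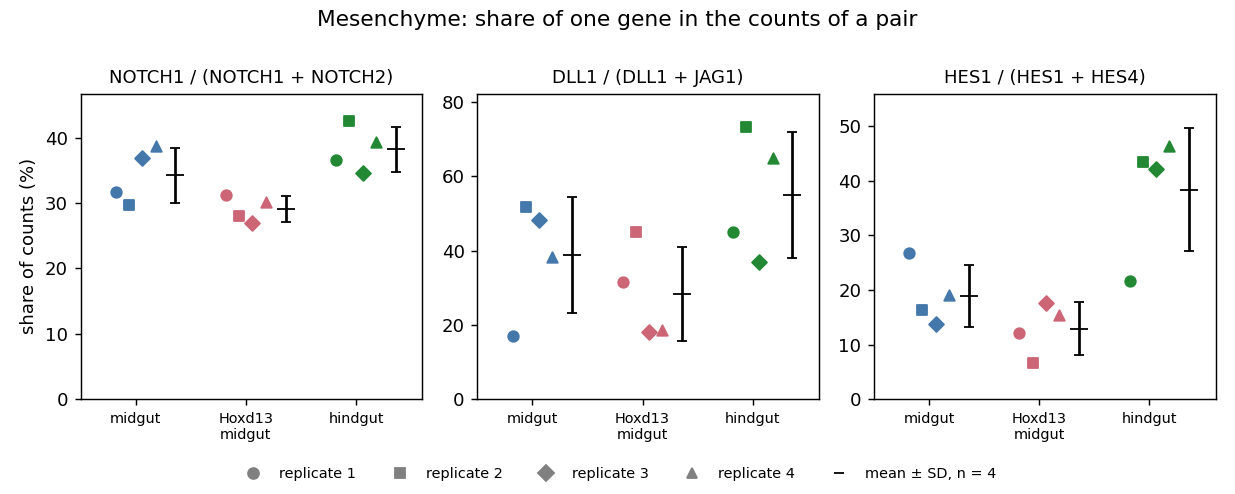
Share of 1 gene in the summed counts of a pair within each mesenchyme sample, in percent on axes from 0, with 1 marker per sample and the mean ± SD of 4 samples in black. The NOTCH1 and HES1 shares of all hindgut samples lie above those of all Hoxd13 midgut samples, and the DLL1 shares overlap.

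Marker genes of several cell types moved with the hindgut and Hoxd13 midgut contrast in which HES1, DLL1 and NOTCH1 were called, and their part in the result was not tested. Erythroid genes (6 of 10 listed had a row, with HBBR at 0 in both midgut groups and HBZ at 0 in midgut and hindgut) summed to 454 to 832 CPM in hindgut, 165 to 204 CPM in Hoxd13 midgut and 189 to 362 CPM in midgut. Pericyte genes (5 of 7 with a row) summed to 2406 to 3590, 1577 to 1823 and 1359 to 2168 CPM in the same order. Smooth muscle genes (14 of 14) summed to 7095 to 13240, 5237 to 6205 and 4342 to 6901 CPM, and mesenchymal genes (16 of 16) to 19065 to 22547, 12005 to 15030 and 15716 to 18421 CPM. Epithelial genes (15 of 24 with a row, with FABP1 at 0 in Hoxd13 midgut and TFF2 at 0 in hindgut and midgut) ran the other way outside hindgut replicate 1, at 872 to 3372, 2201 to 2536 and 2313 to 3436 CPM.

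Endothelial genes (14 of 17 with a row, with SOX17 at 0 in both midgut groups) overlapped between hindgut (270 to 438 CPM) and Hoxd13 midgut (264 to 410 CPM), and midgut had 214 to 257 CPM. Immune genes (10 of 10, with C1QB at 0 in hindgut, LYZ and CD3E in Hoxd13 midgut and C1QC in midgut) summed to 90.1 to 123 CPM in hindgut, 46.2 to 78.5 CPM in Hoxd13 midgut and 46.1 to 86.9 CPM in midgut. Enteric neuron and glia genes (17 of 19 with a row, S100B at 0 in both midgut groups) overlapped at 593 to 1000 and 576 to 735 CPM, and mesothelial genes (7 of 8, MSLN at 0 in both midgut groups) at 539 to 1634 and 1036 to 1354 CPM. W-linked genes overlapped between hindgut (42.1 to 181 CPM) and Hoxd13 midgut. Mitochondrially encoded genes summed to 274897 to 355498 CPM in hindgut and 406647 to 427362 CPM in Hoxd13 midgut.

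Of 66 genes on a list of the NOTCH pathway, 54 had a row and 29 passed the low-count filter in the mesenchyme. In hindgut against Hoxd13 midgut 4 of the 29 were called higher and 0 lower, beside 2.25% of all genes called higher and 3.78% called in either direction. The 3 called members were among the 4. Of the 24 tested pathway genes that are not members, 1 was called higher and 0 lower. Members and list were chosen with earlier results of these data known, so nothing is concluded from the share of the 29. The median log2 change of the 29 genes was 0.05, against 0.01 over all genes tested. DESeq2 called 2 of the 29, and edgeR called 1 to 6 of the tested list with 1 sample left out: 6 without hindgut replicate 1, 1 without hindgut replicate 2 or 4 or Hoxd13 midgut replicate 2 or 3, 2 without Hoxd13 midgut replicate 1 or 4 or midgut replicate 3 or 4, and 3 in the other fits. Over all genes the same fits called 58 to 629, against 158 with all samples.

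Outside the called genes, the smallest p-values in hindgut against Hoxd13 midgut belonged to EP300, a histone acetyltransferase that acts as coactivator (0.40 ± 0.15, edgeR adjusted p = 0.14), to LFNG, a glycosyltransferase that modifies the receptors (0.69 ± 0.31, adjusted p = 0.24), and to NEURL1, a ubiquitin ligase of the Neuralized family whose fly namesake acts on the ligands (-0.41 ± 0.19, adjusted p = 0.27). None of these passed. Without hindgut replicate 1, LFNG (0.89 ± 0.31, adjusted p = 0.038) and EP300 (0.46 ± 0.15, adjusted p = 0.024) passed too. That made 6 of 29 genes higher and 0 lower, with HES1, DLL1 and NOTCH1 among them. Of all genes, 7.81% were called higher and 14.9% called in either direction.

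In hindgut against midgut edgeR called 0 of the 29, with 4 at an unadjusted p under 0.05, and DESeq2 called 0. Their median was 0.11 against -0.00 over all genes. Besides members, the smallest p-values there among the genes reported here belonged to LFNG (0.75 ± 0.31, adjusted p = 0.25), ADAM10, the protease of the first cut (0.41 ± 0.19, adjusted p = 0.38), and FURIN, which matures the receptor (0.55 ± 0.35, adjusted p = 0.53). Without hindgut replicate 1, 5 of 29 were higher and 0 lower, with 10.1% of all genes called higher and 19.6% called in either direction. HES1, NOTCH1, LFNG (0.93 ± 0.30, adjusted p = 0.022) and ADAM10 (0.57 ± 0.20, adjusted p = 0.039) were among the 5. In Hoxd13 midgut against midgut edgeR called 0 of 29, with 2 at an unadjusted p under 0.05 (EP300, -0.37 ± 0.15, adjusted p = 0.19; NEURL1, 0.45 ± 0.20, adjusted p = 0.23), and DESeq2 called 0. With only the groups compared in the fit, 1 pathway gene was called, and 365 of 3602 genes in all. Besides members, POGLUT1, an O-glucosyltransferase of the receptors, came next in the fit of all groups at 0.75 ± 0.40 (edgeR adjusted p = 0.35). The median of the list was -0.06 against 0.01 over all genes.

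**Figure D4:**
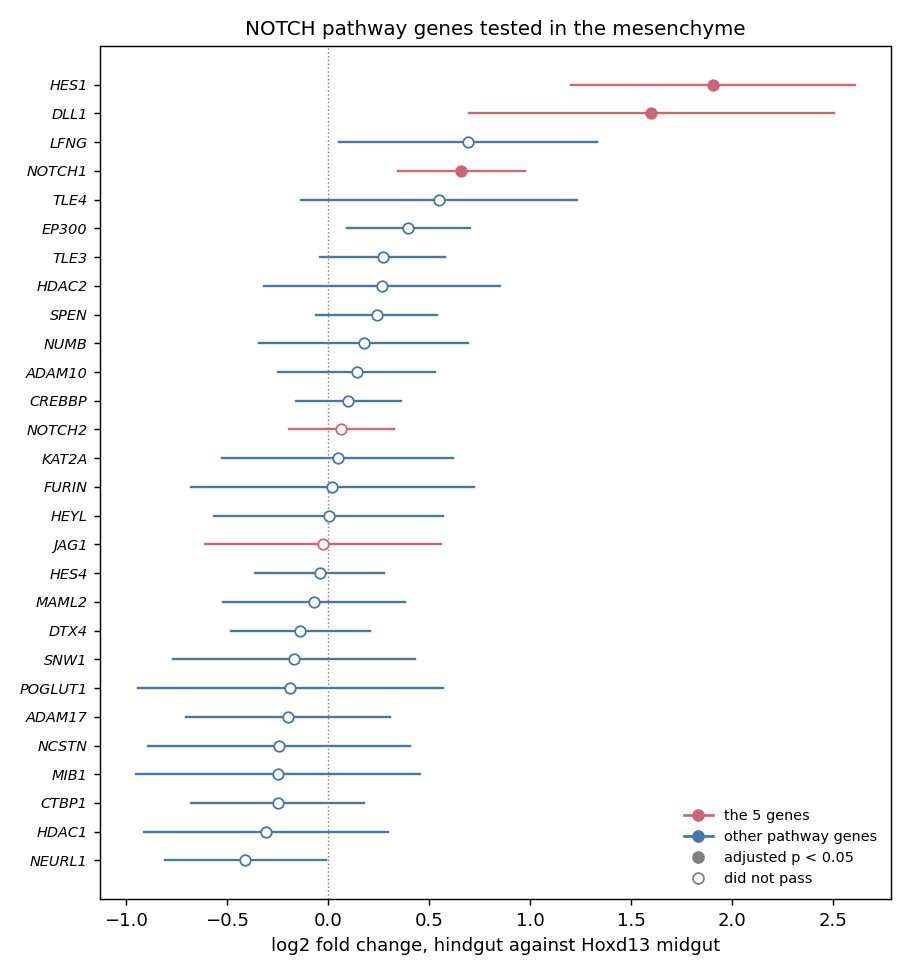
Log2 fold change of 28 of the 29 NOTCH pathway genes tested in the mesenchyme, hindgut against Hoxd13 midgut, with 95% intervals; the 5 members are red, other pathway genes blue, and filled points passed an adjusted p of 0.05. The filled points are HES1, DLL1 and NOTCH1, all on the side of hindgut.

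HES4 had 166 ± 16.7 CPM in hindgut, 176 ± 14.3 in Hoxd13 midgut and 194 ± 27.5 in midgut (SD, n = 4), and HEYL, another repressor induced by NOTCH, 45.0 ± 18.1, 47.4 ± 10.7 and 42.5 ± 10.8 CPM. Neither passed in any mesenchyme comparison, and for HEYL the interval of hindgut against Hoxd13 midgut was -0.57 to 0.57 on the log2 scale. The ligands DLL4 and JAG2 did not pass the low-count filter, with 33 and 81 counts over the 12 mesenchyme samples. RBPJ, with 70 counts, did not pass it either.

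Across the 12 mesenchyme samples the level of NOTCH1 was most like that of the globin gene HBAD (Pearson r = 0.93 of log2 CPM, Spearman rho 0.94), the transcription factor gene NFATC2 (0.91, 0.92) and HBA1 (0.90, 0.89). HES1 was most like LAMB1, a laminin chain (0.96, 0.88), HBAD (0.95, 0.83) and COL6A3, a collagen VI chain (0.94, 0.93). DLL1 was most like BTBD6 (0.87, 0.80), MECOM (0.86, 0.87) and ENSGALG00000024039 (0.86, 0.92), NOTCH2 like FERMT2 (0.86, 0.85), HMGA1 (0.86, 0.85) and LAMA4 (0.85, 0.77), and JAG1 like TMEM106B (0.82, 0.86), SFPQ (0.82, 0.79) and PIP4K2A (0.81, 0.86). Among the members, NOTCH1 and HES1 were the closest pair (Pearson r = 0.89, Spearman rho 0.78), followed by NOTCH1 and DLL1 (0.67, 0.66), and JAG1 had r between -0.18 and 0.02 with the other 4. These values describe 12 samples that share 3 groups, so group differences enter every one of them. The 3 genes named for each member had the highest Pearson r among 4175 genes compared, which does not hold for the pairs of members.

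In the muscle layers the receptors were the only members with enough counts for the fit across genes. NOTCH2 averaged 533 ± 112 CPM in midgut, 633 ± 328 in Hoxd13 midgut and 532 ± 110 in hindgut in the longitudinal muscle, and 579 ± 110, 506 ± 176 and 636 ± 168 in the circumferential muscle (SD, n = 4). NOTCH1 averaged 191 ± 60.0, 212 ± 71.8 and 193 ± 82.7 CPM in the longitudinal muscle and 264 ± 160, 232 ± 41.1 and 236 ± 47.7 in the circumferential muscle. The groups overlapped for both receptors in both layers. By edgeR none of the receptors tested there passed in any of the 6 comparisons (0 at an unadjusted p under 0.05, and 0 by DESeq2), with adjusted p from 0.50 to 0.99.

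Of the 144 genes tested in the longitudinal muscle, 1.39% were called in hindgut against midgut, 11.8% in Hoxd13 midgut against midgut and 9.72% in hindgut against Hoxd13 midgut. Of the 349 tested in the circumferential muscle, the shares were 0%, 4.87% and 0.86% in the same order, where the 0 calls by edgeR stood beside 37 genes at an unadjusted p under 0.05 and 2 calls by DESeq2. Hindgut against midgut without hindgut replicate 1 called 12 of 129 genes in the longitudinal and 39 of 365 in the circumferential muscle, and 0 receptors in either layer. NOTCH1 in hindgut against Hoxd13 midgut, called in the mesenchyme, was at 0.11 in the circumferential muscle with a 95% interval of -0.63 to 0.85, which includes the mesenchyme value of 0.66. The difference between the mesenchyme and the mean of both muscle layers was tested for each effect against midgut and did not pass for NOTCH1 (0.31 ± 0.33 for hindgut, adjusted p = 1.0; -0.24 ± 0.35 for Hoxd13 midgut, adjusted p = 0.93) or NOTCH2 (-0.00 ± 0.24, adjusted p = 1.0, and 0.10 ± 0.25, adjusted p = 0.95), while 0.489% and 0% of 614 genes were called. In the longitudinal muscle, where NOTCH1 missed the filter, exact permutation tests of its CPM gave p of 0.66 to 1.0. At this depth HES1 in circumferential muscle had 4 counts in midgut, 6 in Hoxd13 midgut and 12 in hindgut, and no pair of groups passed (exact permutation p from 0.31 to 1.0).

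Set against the mesenchyme of the same samples, neither receptor passed the test in either muscle layer. NOTCH1 in longitudinal muscle against mesenchyme was at -0.35 ± 0.20 (log2, SE; edgeR adjusted p = 0.23) and NOTCH2 at 0.18 ± 0.14 (adjusted p = 0.40), while 20.8% of 614 genes were called. In circumferential muscle NOTCH1 was at -0.06 ± 0.14 (adjusted p = 0.78) and NOTCH2 at 0.20 ± 0.11 (adjusted p = 0.16), while 40.1% of genes were called. Without Hoxd13 midgut replicate 3, NOTCH2 was called higher in circumferential muscle (0.29, adjusted p = 0.047). With no low-count filter both receptors were called lower in longitudinal muscle, NOTCH1 at -1.23 and NOTCH2 at -0.72. NOTCH1 was also called lower in circumferential muscle at -0.57, while NOTCH2 there turned to -0.32 without a call. Both receptors thus moved down in both layers, and the cause was not tested. On total counts NOTCH2 was not lower, with 155 counts in longitudinal muscle against 138 at the mesenchyme level, and 329 against 304 in circumferential muscle. NOTCH1 had 54 against 71.7 and 138 against 159.

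DLL1, JAG1 and HES1 were too rare in muscle for the fit across genes. Most of these libraries would hold only a few counts at the mesenchyme level, and a count of 0 does not show a lower level in a single sample. An exact sign-flip test of CPM differences over the 12 samples gave adjusted p = 0.0029 for DLL1 in longitudinal muscle. For JAG1 in circumferential muscle it gave 0.0044, and the rest of the 6 relations gave 0.094 to 0.38. A count of 0 always falls below the mesenchyme level, so these differences are skewed and nothing is concluded from that test. The counts of these genes summed over the 12 samples are therefore given as a description, with 95% Poisson intervals that cover counting error only. DLL1 had 1 count in longitudinal muscle (0.0253 to 5.57), where the mesenchyme level of each sample would have given 9.31, and 7 counts in circumferential muscle (2.81 to 14.4) against 21.4. JAG1 had 9 counts in longitudinal muscle (4.12 to 17.1) against 12.1 and 11 in circumferential muscle (5.49 to 19.7) against 26.5. HES1 had 10 counts in longitudinal muscle (4.80 to 18.4) against 15.1 and 22 in circumferential muscle (13.8 to 33.3) against 33.8.

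The ranges of some marker lists over all groups also shifted between layers, though each such range overlapped with that of the mesenchyme. The part of these lists in the counts above was not tested. Epithelial genes summed to 384 to 2065 CPM in the longitudinal and 440 to 1999 CPM in the circumferential muscle against 872 to 3436 CPM in the mesenchyme. Within each sample, the epithelial sum was lower in both muscle layers than in the mesenchyme. Mesothelial genes summed to 356 to 1136 and 249 to 1017 CPM against 539 to 1680 CPM in the mesenchyme. Smooth muscle genes summed to 5020 to 10740 and 8586 to 21688 CPM against 4342 to 13240 CPM. In hindgut alone the smooth muscle genes averaged 8474 CPM in the longitudinal muscle, below the 9912 CPM of the mesenchyme. Mesenchymal genes summed to 10173 to 24927 and 10976 to 24615 CPM against 12005 to 22547 CPM, so they did not separate the layers.

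**Figure D5:**
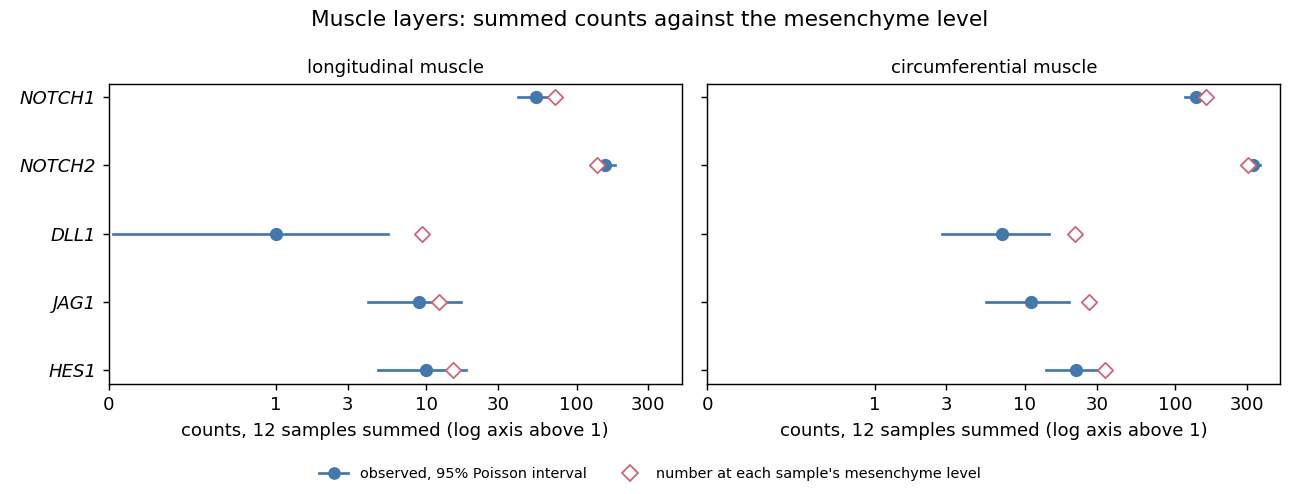
Counts of each gene summed over the 12 samples in each muscle layer (blue, with 95% Poisson intervals that cover counting error only) and the number that the mesenchyme level of each sample would give at the depth of the muscle library (open diamonds), on an axis that is logarithmic above 1. DLL1 lies farthest to the left of its diamond, at 1 against 9.31 in the longitudinal muscle, and NOTCH2 lies just to the right of its diamond in both layers.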

How the data were processed

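The deposited values were raw counts, 1 column for each layer of each sample, and reads had been assigned to layers by barcode, per the series text. The submitters' processing notes name the genome build GRCg6a and, with no role or version, featureCounts, STAR, DESeq2, UMI-tools and MultiQC. Those sources do not state whether reads or unique molecules were counted. Intervals and floors therefore cover counting error only. A count of 0 allows up to 3 counts, or 3.32 to 14.2 CPM in a mesenchyme sample, 60.6 to 267 CPM in longitudinal muscle and 26.7 to 151 CPM in circumferential muscle.

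Each layer was fitted with edgeR 4.0.16 in R 4.3.3 (quasi-likelihood test, TMM, low-count filter with minimum count 10 and minimum total 15, 12 samples sharing 1 estimate of the spread). Layers were compared in a fit of 36 columns with the sample as a block. Tests were two-sided, adjusted by Benjamini-Hochberg over all genes tested, with a threshold of 0.05. Standard errors are the absolute log2 change over the square root of F. CPM of single genes use total counts times TMM factors, and the edgeR fits of layers use TMM too. Sums over lists, the sign-flip test and the counts at the mesenchyme level use total counts. Members missing the filter were compared by exact permutation of CPM where both groups held 10 or more counts together (6 pairs, adjusted together). An exact sign-flip test of DLL1, JAG1 and HES1 between each muscle layer and the mesenchyme was added later (6 relations, adjusted together). Members and lists were chosen with earlier results of these data known. The text names the members, the 3 pathway genes next by p in each comparison, and the 3 genes closest to each member. A further pathway gene that this rule names is counted but not reported here. HES4, HEYL, DLL4, JAG2 and RBPJ were added after their values were seen.

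No pair of samples of a group agreed within sampling noise (54 pairs, chi-square tests). On simulated counts the fit for hindgut against midgut in the mesenchyme (4204 genes) recovered 56 of 100 genes changed 2-fold and 97 of 100 changed 4-fold. The changed genes were drawn from the more abundant ones, every gene had the same spread, and no sample was made to stand apart. These shares therefore need not hold for rare genes such as DLL1, JAG1 and HES1. Alternatives were DESeq2 1.42.0, its size factors, no filter, a replicate block, only the 2 groups compared, and leaving out each sample.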

Additional observations from a re-analysis of the deposited data

Results flagged for a closer look

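In the hindgut circumferential muscle, HES1 of replicate 2 was far from the other 3 samples of its group, at 0 CPM in a library of 40210 counts. Its gap to the nearest sample was 0.834 of the range of the group, more than Dixon's test allows at its 95% level. In all, 28 groups were examined in this way, and chance gives such a gap in about 1 in 20 groups. The other 3 samples held 8, 1 and 3 counts, and a count of 0 allows up to 3 counts, so this sample cannot be separated from them at its depth.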

How the results depend on the processing

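HES1 in hindgut against Hoxd13 midgut kept its call in every fit that left out 1 sample. The replicate numbers did not pair the samples (correlations of deviations from -0.274 to 0.0946 over 12 same-numbered pairs, 0 over 0.1). With the numbers as a replicate block, HES1 in hindgut against midgut passed at 1.07 (edgeR adjusted p = 0.047), and 143 genes were called in that comparison instead of 62. It also passed with no low-count filter (1.11). Leaving out 1 sample gave 0.77 to 1.47 for HES1 and 0.28 to 0.45 for NOTCH1 in hindgut against midgut, 0.58 to 0.77 for NOTCH1, 1.28 to 1.92 for DLL1 and -0.21 to 0.30 for JAG1 in hindgut against Hoxd13 midgut, and -0.020 to 0.093 for NOTCH2 in Hoxd13 midgut against midgut. JAG1 in hindgut against Hoxd13 midgut was 0.0096 with no filter. Genes called in hindgut against midgut numbered 112 with DESeq2, 231 with no filter, 2 with only the groups compared and 14 to 825 with 1 sample left out. In Hoxd13 midgut against midgut they numbered 111, and 66, 172, 365 and 37 to 317 under the same settings. In hindgut against Hoxd13 midgut they numbered 158, 71 with only the groups compared and 58 to 629 with 1 sample left out. The causes were not tested.

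In muscle, where no member passed between groups, signs turned as follows. NOTCH2 in longitudinal muscle was -0.011 with DESeq2 size factors, -0.020 with DESeq2 and -0.22 with only the groups compared for Hoxd13 midgut against midgut (-0.25 to 0.19 with 1 sample left out), -0.0073 with DESeq2 for hindgut against midgut (-0.084 to 0.18), and -0.025 with no filter for hindgut against Hoxd13 midgut (-0.11 to 0.30). NOTCH1 in circumferential muscle was 0.14 for hindgut against midgut (-0.46 to 0.25) and 0.018 for Hoxd13 midgut against midgut (-0.54 to 0.16) with no filter, and -0.029 with the block for hindgut against Hoxd13 midgut (-0.051 to 0.16). NOTCH2 there was -0.014 with the block for hindgut against midgut (-0.11 to 0.20). Against mesenchyme with no filter, NOTCH2 was -0.72 in longitudinal and -0.32 in circumferential muscle, and NOTCH1 in circumferential muscle ranged from -0.18 to 0.066 with 1 sample left out. The difference between mesenchyme and muscle ranged from -0.12 to 0.10 for NOTCH2 in hindgut, -0.53 to 0.0021 for NOTCH1 in Hoxd13 midgut and -0.017 to 0.30 for NOTCH2 in Hoxd13 midgut (-0.058 with no filter). With plain totals that left out mitochondrial genes, NOTCH1 CPM in longitudinal muscle differed by -23.2 in hindgut against midgut, -33.7 in Hoxd13 midgut against midgut and 10.5 in hindgut against Hoxd13 midgut. That setting also dropped the TMM factors, so the turned signs cannot be assigned to the mitochondrial genes.

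DLL1 missed the filter with only the groups compared in both Hoxd13 midgut comparisons, and DESeq2 gave no adjusted p for DLL1, HES1 and JAG1 in both hindgut comparisons. Depth limits DLL1, JAG1 and HES1 most, above all in muscle.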
